A study of Mus musculus with 2 samples.

Results

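Guidance genes of the semaphorin, Slit, netrin and ephrin systems were compared between 2 clones of mouse mesoangioblasts, D16 and D351. Mesoangioblasts are vessel-associated progenitor cells able to form more than one kind of mesodermal cell. The 9 genes described are Sema3a, Sema3c, Nrp2, Slit3, Srgap2, Neo1, Efna3, Efna5 and Tenm4, taken as all probe sets of the array whose platform annotation gives exactly 1 gene symbol, that symbol being on this list. They were 13 of 12477 probe sets and 9 of 7542 named genes. The list was drawn up with the difference between these same 2 arrays in view, so the size of each difference is given as a description and no list count is evidence for it.

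Both clones came from the same protocol. Explants of the dorsal aorta, taken from C57BL6 embryos on day 9.5, were cultured for 5 days and dissociated, and single cells were cloned over mitomycin C-treated embryonic mouse fibroblasts in RPMI with 20% fetal calf serum. Growing clones were moved to gelatin-coated dishes and expanded. Neither clone is described as carrying an added gene or as having been treated, and the labels name no control cell, so each group is 1 clone and 1 RNA sample on 1 Affymetrix MG-U74B array. With no replicate there is no spread between cultures, and no test, standard error or p-value is given for any difference. In bulk RNA, fewer cells of a type and less RNA per cell cannot be told apart.

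Signals were intensity values, with a total of 653854 for D16 and 646285 for D351. Values under a floor of 16.8, the median of both arrays pooled, were raised to that floor before a ratio was taken. Where only 1 array reached the floor the ratio is a limit and not a value, and the words at least or at most stand before it. A probe set under the floor on both arrays was given no ratio. All log2 ratios are differences of D351 over D16 on the log2 scale, so that values below 0 are higher in D16. Across all 4922 genes with a ratio the median was -0.01.

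Guidance cues were first described as signals that steer growing axons. Semaphorins, Slits, netrins and ephrins bind receptors on the cell surface and act through the actin cytoskeleton, mostly to repel or to attract a moving cell. The same families act outside the nervous system, where they shape vessel sprouting, the sorting of cells into compartments and the migration of neural crest and mesenchyme. Class 3 semaphorins are secreted and bind neuropilins, which signal together with plexins. Slits are secreted ligands of Robo receptors. A-type ephrins are held on the membrane by a lipid anchor and bind Eph receptor kinases on the neighbouring cell.

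In clone D16 the signal was higher for the secreted semaphorins Sema3a and Sema3c, the co-receptor Nrp2, both ephrin-A ligands and the teneurin Tenm4. In clone D351 it was higher for the secreted ligand Slit3, the Slit-Robo GTPase-activating protein Srgap2 and the receptor Neo1. All 9 genes, 6 towards D16 and 3 towards D351, lay at least 2-fold apart. Among all measured genes 8.57% passed 2-fold towards D16 and 9.49% towards D351. The list was chosen on this contrast, so nothing is read from that comparison. Sizes ran from at least 2.15-fold for Sema3c to at least 28.0-fold for Slit3. For 5 genes both arrays reached the floor, and for 4 the dimmer array was under it.

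**Figure D1:**
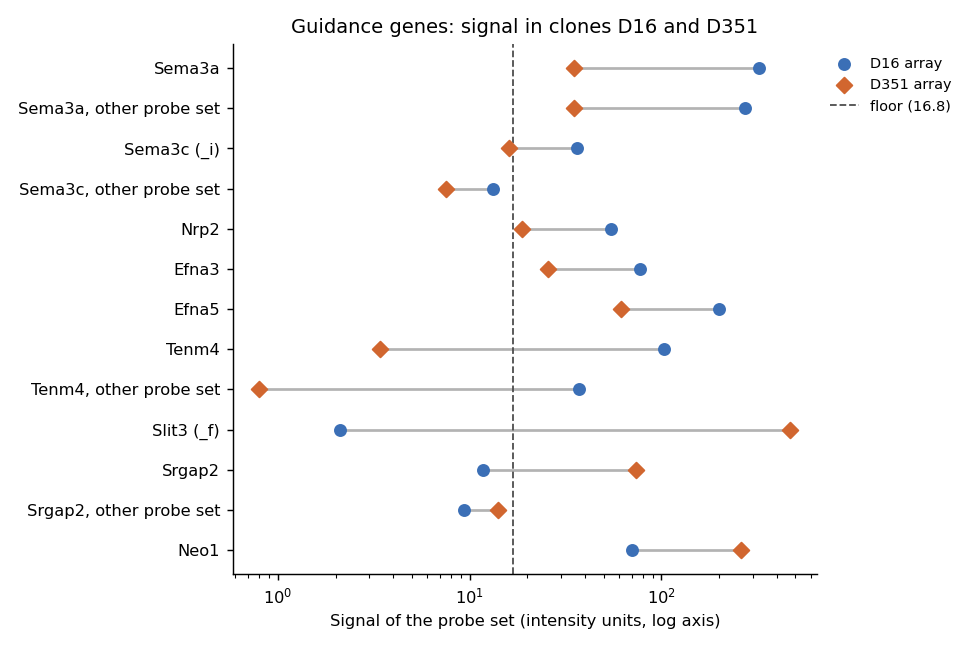
Signal of each of the 13 probe sets of the 9 guidance genes in D16 (circles) and D351 (diamonds), on a log axis in intensity units, with the floor of 16.8 as a dashed line. Each point is 1 array. Slit3 spans 2.1 to 470.5, and the 2 probe sets of Sema3a run side by side at 322.5 against 35.2 and 274.2 against 35.

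Among the semaphorin genes measured, Sema3a had the largest difference. Sema3a, a secreted repellent that binds neuropilin-1 with A-type plexins, read 322.5 in D16 and 35.2 in D351, a 9.16-fold difference (log2 -3.20). Its other probe set, with the plain ending _at, read 274.2 and 35, a 7.83-fold difference (log2 -2.97). D16 was the high array on both probe sets, and both arrays were above the floor on each. Counted from the largest difference towards D16, Sema3a stood at place 6 among the measured genes, a rank that depends on the floor because ratios of other genes are limits. With the floor at the 25th percentile the ratio of Tenm4 (log2 at most -4.49) passed that of Sema3a (-3.20).

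Sema3c, a secreted semaphorin known for its part in heart outflow tract development, read 36.2 in D16 and 16 in D351 (at least 2.15-fold, log2 at most -1.11). That value came from a probe set with the ending _i, a design with fewer than the usual number of unique probes. Its plain probe set read 13.2 and 7.5, under the floor on both arrays. Sema3c was therefore low on both arrays, and its call rests on 1 probe set close to the floor. Nrp2, the neuropilin that binds Sema3c and Sema3f and also vascular endothelial growth factor C, read 54.8 in D16 and 18.7 in D351, a 2.93-fold difference (log2 -1.55). The D351 value was just above the floor.

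Sema3c and Nrp2, a ligand and its co-receptor, were thus both higher in D16. Both were chosen with this contrast in view, so nothing is read from their shared side. A-type plexins, the signalling partners of neuropilins, had no ratio past 2-fold. Plxna3 read 43.9 in D16 and 67.9 in D351 (log2 0.63), towards the other clone. Plxna4 read 19.3 and 21.4 (log2 0.15). Plxna2 read 17 and 13.3 (log2 at most -0.02) on its brighter probe set and lay under the floor on the other, so it was near the limit of what the array could measure. Sema3g, another ligand of Nrp2, was under the floor on both arrays at 1.9 and 3.2. Nrp1, Plxna1, Plxnd1, Sema3f and Vegfc were not analysed here, since no probe set carried those symbols alone. The main co-receptor of Sema3a is therefore missing from the comparison.

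Sema3a and Sema3c both lie on chromosome 5, their RefSeq start windows beginning at 13396534 and 17574566, with 1 other measured gene between them. That gene, Cacna2d1, a calcium channel subunit named here after its values were seen, read 3.2 in D16 and 80.8 in D351, at least 4.81-fold higher in D351. Both semaphorins therefore flanked a gene that differed in the opposite direction. The RefSeq start windows of the pair also differed in base composition. The 250 bases before the Sema3c start held 78.4% G and C with 39 CG dinucleotides, against 40.8% and 2 for Sema3a. The Sema3a sequence is shown because that gene had the largest ratio towards D16 among the 9 at this floor and the lowest G and C content of their windows. It lies at chr5:13396534-13396783 on the + strand of GRCm38.p6, before a transcript start that is inside the span of the RefSeq gene and not at its outermost start.
Sema3a: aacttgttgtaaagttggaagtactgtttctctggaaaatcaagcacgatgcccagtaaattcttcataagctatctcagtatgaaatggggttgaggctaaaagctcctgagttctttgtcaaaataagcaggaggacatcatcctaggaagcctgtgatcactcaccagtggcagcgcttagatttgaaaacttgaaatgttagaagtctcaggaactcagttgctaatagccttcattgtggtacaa

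Slit3 had the largest difference of the 9 genes and stood at place 2 among all measured genes towards D351, a rank that depends on the floor because the ratio is a limit. Slit3, a secreted ligand of Robo receptors with roles in vessel growth and in the diaphragm, read 2.1 in D16 and 470.5 in D351 (at least 28.0-fold, log2 at least 4.81). D351 was the high array, and the D16 value was far under the floor. The probe set has the ending _f, a design whose probes match related transcripts, and it was the only one for Slit3. Signal from a related transcript cannot be told apart on it. The plain probe set of Slit2, the closest family member with a ratio, read 80.4 in D16 and 61.4 in D351 (log2 -0.39), in the other direction. Slit1 was under the floor on both arrays at 2.7 and 1.9.

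The sequence before the Slit3 start is shown for contrast with Sema3a. It lies at chr11:35121206-35121455 on the + strand of GRCm38.p6, at the outermost start of the RefSeq gene, and held 78.8% G and C with 35 CG dinucleotides. Capitals mark the GC box GGGCGG on either strand, of which 6 copies were found, some of them overlapping.
Slit3: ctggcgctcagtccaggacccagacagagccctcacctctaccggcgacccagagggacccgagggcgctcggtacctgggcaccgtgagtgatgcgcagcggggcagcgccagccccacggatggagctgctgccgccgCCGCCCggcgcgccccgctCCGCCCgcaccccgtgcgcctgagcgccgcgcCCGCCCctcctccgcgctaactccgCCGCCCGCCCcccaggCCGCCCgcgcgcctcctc

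Srgap2, a protein that binds Robo receptors inside the cell, bends membranes and switches off Rac, was also higher in D351. It read 11.7 in D16 and 73.8 in D351 on its brighter probe set (at least 4.39-fold, log2 at least 2.14). The other probe set read 9.4 and 14.0, under the floor on both arrays, so the call rests on 1 of 2 probe sets. A further 2 probe sets are annotated to Srgap2 together with a second gene and were not used. They read 1.0 and 1.5, and 3.0 and 2.7, in D16 and D351. The other members of the family differed less. Srgap3 read 106.9 in D16 and 159.1 in D351 (log2 0.57), and Srgap1 read 79.8 and 80.3 (log2 0.01).

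No Robo receptor gave a ratio, so the receiving side of the Slit pair could not be described in either clone. Robo4, the Robo of endothelial cells, was under the floor on both arrays at 5.1 and 6.9. Robo1, Robo2 and Robo3 were not analysed here. Ligand and effector were thus higher in the same clone, with no measured receptor between them. Slit3 and Srgap2 were both chosen with this contrast in view, so nothing is read from their shared side.

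Neo1 encodes neogenin, a receptor for netrins and for the repulsive guidance molecules (RGMs), which also takes part in BMP signalling. It read 70.3 in D16 and 258.5 in D351, a 3.68-fold difference (log2 1.88) with both arrays above the floor. Its RGM ligands ran the other way. Rgma read 112.0 in D16 and 60.1 in D351, a 1.86-fold difference (log2 -0.90). Rgmb read 47.9 and 30.6 (log2 -0.65) on its brightest probe set, and was at most -0.36 and at most -0.44 on its other probe sets, so that all 3 were higher in D16. Neither RGM ligand reached 2-fold. The receptor was therefore brighter in D351 and both RGM ligands brighter in D16.

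Other netrin receptors differed less than Neo1. Unc5b, a netrin receptor of endothelial tip cells, read 137.3 in D16 and 214.9 in D351 (log2 0.65) on its brightest probe set and was under the floor on its other probe sets. Unc5a read 27.3 and 29.6 (log2 0.12). Ntn3, a netrin, read 15.9 in D16 and 21.5 in D351 (log2 at least 0.36), on the same side as Neo1. Ntn1, the best known netrin, was not analysed here.

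Both ephrin-A ligands named on the array were higher in D16. Efna5, a ligand that repels axons in the visual map and is found in mesenchyme, read 199.2 in D16 and 61.2 in D351, a 3.25-fold difference (log2 -1.70). Efna3, a second lipid-anchored ligand, read 77.3 and 25.7, a 3.01-fold difference (log2 -1.59). Each had 1 plain probe set, and each was above the floor on both arrays. The transmembrane ephrin Efnb1 did not share the difference, at 93.2 in D16 and 104.2 in D351 (log2 0.16).

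Of the Eph receptors listed as partners of the ephrin-A ligands, Epha7 was under the floor on both arrays at 14.1 and 13.6. Epha10, which was not listed as a partner, was likewise under the floor, at 13.2 and 3.3. Ephb1, a receptor for ephrin-B ligands, read 74.6 in D16 and 80.3 in D351 (log2 0.11). Epha2, Epha3, Epha4, Epha5, Epha8 and Ephb2 were not analysed here. The ephrin-A difference is thus one of ligands, with no measured receptor of that class.

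Tenm4, a teneurin, is a large transmembrane protein that binds latrophilins on the facing cell. Its brighter probe set read 103.4 in D16 and 3.4 in D351 (at least 6.15-fold, log2 at most -2.62). The other read 37.1 and 0.8 (at least 2.21-fold, log2 at most -1.14). On both plain probe sets D16 was above the floor and D351 far under it. Its receptors, the latrophilins, were all lower in D351 as well. Adgrl2 read 251.9 in D16 and 145.2 in D351 (log2 -0.79). Adgrl1 read 109.9 and 83.7 (log2 -0.39), neither of them reaching 2-fold. Adgrl3 read 20.3 and 2.0 (log2 at most -0.27), a limit set by the floor. Tenm4 and the latrophilins were therefore brighter in the same clone, though by less than 2-fold for Adgrl1 and Adgrl2 and only by a limit for Adgrl3. The Adgrl1 difference was also under 0.50, the SD of log2 ratios per probe set among genes with 2 measured probe sets.

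The sequence before the outermost Tenm4 start is shown because, like that of Sema3a, it was poor in CG dinucleotides, with 4 of them and 50.8% G and C. It lies at chr7:96170994-96171243 on the + strand of GRCm38.p6. Capitals mark a TEAD-type motif, GGAATG, found here on the opposite strand.
Tenm4: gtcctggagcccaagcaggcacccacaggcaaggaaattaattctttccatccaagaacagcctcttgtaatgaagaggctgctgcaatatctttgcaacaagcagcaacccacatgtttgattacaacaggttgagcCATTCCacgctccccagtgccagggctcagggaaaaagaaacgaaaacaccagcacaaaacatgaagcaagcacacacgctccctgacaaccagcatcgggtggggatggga

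**Figure D2:**
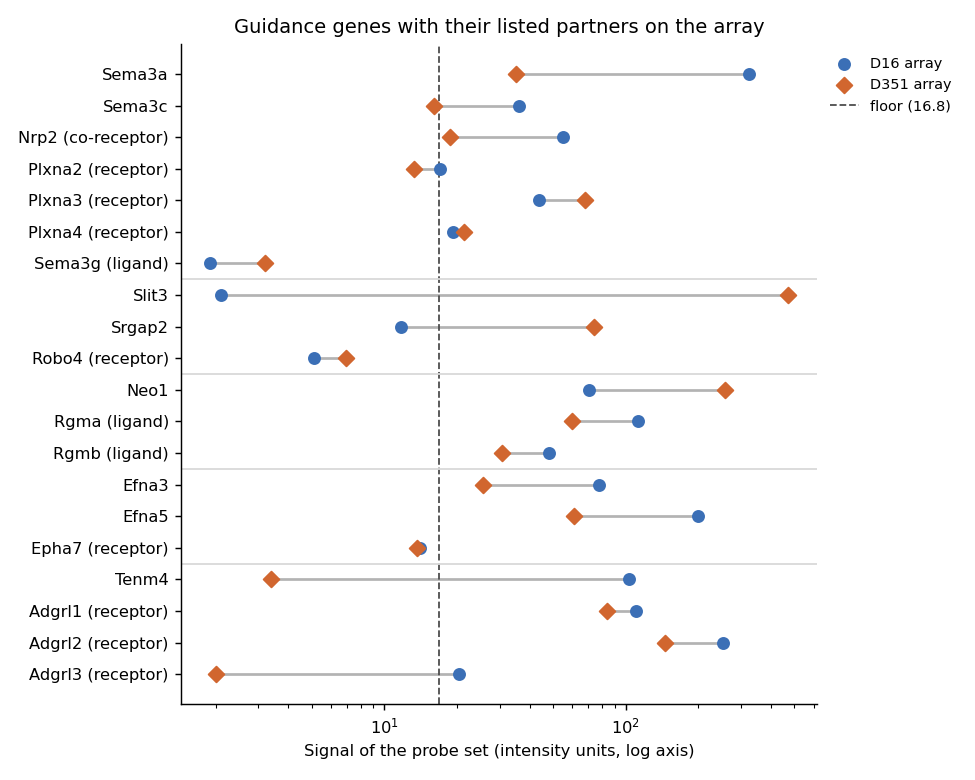
Signal of the guidance genes and of their listed partners in D16 (circles) and D351 (diamonds), on a log axis in intensity units, grouped by ligand and receptor system between the grey lines, with the floor of 16.8 dashed. Rgma and Rgmb are brighter in D16 while their receptor Neo1 is brighter in D351, and the latrophilins Adgrl1, Adgrl2 and Adgrl3 lie on the same side as Tenm4.

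Of 26 partners listed for the 9 genes, 9 had a ratio, 3 were under the floor on both arrays and 14 were not analysed here. Among the measured pairs, Sema3c with Nrp2 and Tenm4 with its latrophilins lay on the same side. Sema3c and Nrp2 were both chosen with their ratios known, so nothing is read from that pair. Sema3a with Plxna3 and Plxna4, Nrp2 with Plxna3, and Neo1 with Rgma and Rgmb lay on opposite sides. Sema3a with Plxna2 lay on the same side only by a limit at the floor (log2 at most -0.02 for Plxna2). Apart from Nrp2, none of these partners had a ratio of 2-fold or more, with values under the floor raised to it. Adgrl1 (log2 -0.39) and Plxna4 (0.15) differed by less than 0.50, the SD per probe set, and Adgrl3 (at most -0.27) was a limit.

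RefSeq (GRCm38.p6) gave start windows for all 9 genes, 11 windows in all. Over the 250 bases before the start, G and C content ran from 40.8% for Sema3a to 83.2% for Neo1, and 8 of the 11 windows were above 52.4%, the median of 32851 windows. The GC box GGGCGG was found on either strand in 8 of the 11, against 32.7% of all windows. The 3 windows without it belonged to Sema3a and Tenm4, both higher in D16, but Efna3, Efna5, Nrp2 and Sema3c, also higher in D16, had it. Motifs for TATAAA (12.4% of all windows), AP-1 (TGANTCA, 6.75%), the E-box CACGTG (6.02%) and the CArG box (1.47%) were found in 0 of the 11, and GGAATG (12.6%) in 1. The motifs were searched on both strands and may overlap. These are descriptions of letters in a short window, and no factor was measured there.

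A wider list of 117 guidance genes was set beside the 9. The array named 58 of them and 41 had a ratio. Of these 41, 4 passed 2-fold towards D351, 7 towards D16 and 30 lay under 2-fold, with a median log2 ratio of 0.01. The background shares are 9.49% and 8.57% of all measured genes. The 9 genes described are 9 of these 11 calls, because they were chosen for them. Among the other 32 measured genes 1 passed in each direction, and their median log2 ratio was 0.11. With values under the floor raised to it, 0 of the other 19 ligands, receptors and teneurin partners reached 2-fold.

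The remaining 2 calls were intracellular effectors. Myo10, an unconventional myosin of filopodia that carries netrin receptors, read 187.5 in D16 and 464.2 in D351, a 2.48-fold difference (log2 1.31). Chn2, a GTPase-activating protein for Rac, read 123.2 and 43.9, a 2.81-fold difference towards D16 (log2 -1.49). That Chn2 value came from a probe set with the ending _r, made under relaxed design rules, and its other probe sets were under the floor on both arrays. Dpysl2 and Dpysl3, of the collapsin response mediator family that act after Sema3a, read 561.0 against 375.0 (log2 -0.58) and 282.0 against 205.9 (log2 -0.45) in D16 and D351. Others went the other way, such as Farp1 at 406.8 and 613.5 (log2 0.59). Of 11 measured cytoplasmic effectors, with the Srgap genes counted apart, 6 were higher in D351 and 5 in D16. The share of all measured genes higher in D351 was 48.8%.

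Just inside the 2-fold line stood Sema3c (log2 at most -1.11) and the dimmer Tenm4 probe set (at most -1.14). Just outside it among the other guidance genes were Rgma (-0.90), Adgrl2 (-0.79), Rgmb (-0.65), Unc5b (0.65), Sema6a (at least 0.64) and Plxna3 (0.63).

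**Figure D3:**
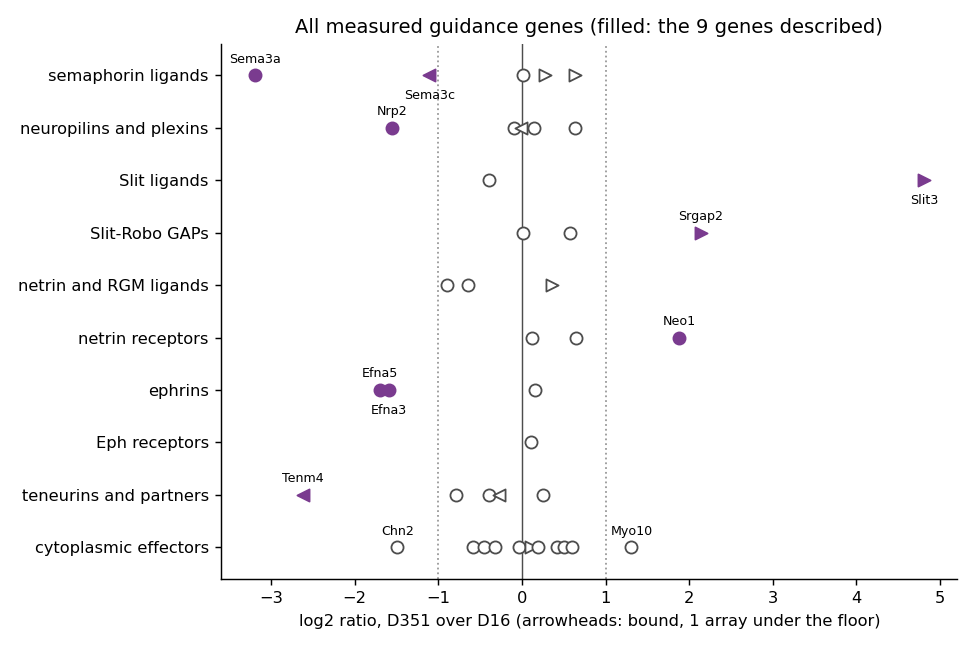
log2 ratio of D351 over D16 for each of the 41 measured guidance genes by family, with the 9 genes described filled and bounds drawn as arrowheads. Dotted lines mark 2-fold. Filled points lie outside the lines, as they were chosen to, and of the open points Chn2 and Myo10 do.

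Genes beside the 9 on their chromosomes gave a measure that the choice of list did not use, except where 1 of the 9 was itself a neighbour of another, as Sema3a and Sema3c were. For each gene the 5 nearest measured genes on either side were taken in RefSeq gene order. The neighbours of Slit3 on chromosome 11 had a median log2 ratio of 0.41, with 0 past 2-fold and a highest value of 0.96, and 8 of the 10 were on the side of D351. The neighbours of Efna3 on chromosome 3 and Efna5 on chromosome 17 had medians of 0.45 and 0.47, towards the clone opposite to the ephrins. Around Sema3a on chromosome 5 the median was -0.21, and around Sema3c, which shares most of these neighbours, -0.19. Without the other semaphorin both medians were -0.15 over 9 genes. Around Nrp2 and Srgap2, both on chromosome 1, it was -0.05 and 0.21.

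Neo1 and Tenm4, like Slit3, had 8 of 10 neighbours on the side of the gene itself. Srgap2 had 7 of 10 on its side, Sema3a, Sema3c and Nrp2 6 each, Efna5 3 and Efna3 2. Among all measured genes 48.8% had a ratio above 0, on the side of D351. On chromosome 9, 8 of the 10 genes around Neo1 were higher in D351, their median was 0.69 (log2), and 2 were past 2-fold. These 2 were Itga11, a collagen-binding integrin subunit (2.9 in D16 and 617.2 in D351, at least 36.7-fold), and Larp6, an RNA-binding protein (7.3 and 47.4, at least 2.82-fold), both named after their values were seen. The chromosome 9 median was 0.17 over 278 genes. Of the 10 genes around Tenm4 on chromosome 7, 8 were higher in D16 with a median of -0.30, near the chromosome median of -0.22. Among them Pcf11 passed 2-fold towards D16 (3.38-fold) and Rab30 towards D351 (2.04-fold), both also named after their values were seen. Taking off the median of each gene's chromosome was a setting added after the data were seen. The limit for Sema3c then no longer reached 2-fold (log2 at most -0.98), and every other of the 9 genes stayed past it.

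**Figure D4:**
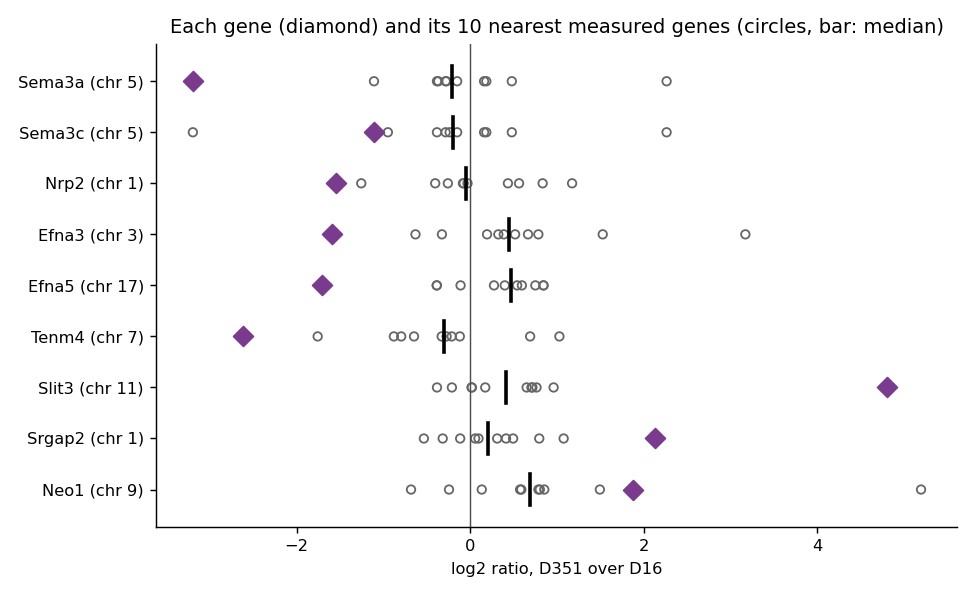
log2 ratio of D351 over D16 for each of the 9 genes (diamonds, with its chromosome) and its 10 nearest measured genes (open circles), with the median of those 10 as a bar. Slit3 at 4.81 lies far from neighbours that reach 0.96, whereas Neo1 at 1.88 lies among neighbours with a median of 0.69.

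Some markers of other cell types differed between the clones and others did not. Of 18 embryonic fibroblast markers, the cell type of the feeder layer, 6 were on the array. Of those 6, 5 passed 2-fold towards D351 and 1 (Tcf4) towards D16, against 9.49% and 8.57% of all measured genes. Sfrp1 read 48.2 in D16 and 900.3 in D351, Aspn 3.6 and 177.4, and Prrx1 149.3 and 546.8. Cd248 read 238.9 and 564, and Col5a2 12.4 and 60.1. Aspn and Col5a2 were under the floor in D16. The signals of all 6 markers, taking the brightest probe set of each gene, summed to 997.2 in D16 and 2454.2 in D351. Tcf4, here the gene of that symbol on chromosome 18, read 544.8 and 205.6 and made up most of the D16 sum. Its standing as a fibroblast marker was not checked, so that sum is a doubtful measure. Of 11 neural and neural crest markers 5 were on the array and 3 measured, with summed signals of 280.2 and 74.7. Map2 and Nefl were at least 2-fold higher in D16, Sox10 was close to equal (63.4 and 64.1), and Nefm and Snap25 were under the floor. Of 17 endothelial markers 5 were on the array and 2 measured, with summed signals of 97.9 and 121.5. Flt1 read 10.3 and 44.5 (at least 2.65-fold towards D351). Plvap read 63.5 and 56.8 (log2 -0.16) on a probe set with the ending _r, and its other probe sets were under the floor. Eng, Esam and Robo4 were under the floor on both arrays. Of 17 smooth muscle and mural markers 8 were on the array, with summed signals of 152.1 and 92.9 and 6 of them under the floor. Cspg4 read 83.3 and 26.1, a 3.19-fold difference towards D16. Myh11, the other measured marker of that list, was close to equal (36.8 and 35.6). The only blood marker present, Runx1, read 45.4 and 61.1, and the only epithelial one, Ocln, was under the floor. The mesoangioblast label itself could not be checked well, because Acta2, Tagln, Pdgfrb and Anpep, like Cdh5 and Pecam1, were not analysed here. The part of these marker differences in the guidance gene differences was not tested.

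Several calls changed with the floor. With a floor of 53.5, the 75th percentile, the limits for Nrp2 (log2 at most -0.035), Srgap2 (at least 0.46), Efna3 (at most -0.53) and Tenm4 (at most -0.95) no longer reached 2-fold and Sema3c had no ratio, while Sema3a, Slit3, Neo1 and Efna5 stayed past it. Spike-in control probe sets at the floor (9 of them) had a median 1.44-fold higher in D16, with 8 of the 9 higher there. Their part in the gene differences was not tested.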

How the data were processed

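RNA of 1 culture of each clone was hybridised to 1 MG-U74B array. The deposited values are linear intensity values per probe set, 1 column per clone, as the authors processed them; software, background correction and presence calls are not given in the sources used here. Trimmed means (2% off each end) were 40.0 on both arrays, so values were used as deposited. The number of arrays limits the precision. Control probe sets (66) were left out. Names came from GEO's platform annotation, matched through gene identifiers to RefSeq names of GRCm38.p6 (10550 of 10581 probe sets with 1 symbol matched, 0 renamed; 178 had several symbols and 1652 were unnamed here). Each gene took the probe set that was brightest on average. The size rule was a 2-fold ratio after raising values to the floor. With 1 array per clone no test was run. The ratio steps were tested on simulated data in which only genes well above the floor were changed. Ratios limited by the floor were not covered. The 9 genes, the wider list, the partner pairs and the markers were chosen with earlier results of these data known. Named were the 9 genes, their listed partners and any gene of the wider list past 2-fold; other list genes illustrate a family. Python 3.11.15, numpy 2.4.6, pandas 2.3.3 and statsmodels 0.14.6 were used. Alternatives were other scalings (equal medians, quantiles, or loess with span 0.3), a floor of 4.6 (25th percentile) or 53.5 (75th), thresholds of 1.5-fold or 3-fold, the median over probe sets, the floor on both arrays, plain probe sets only and, added later, subtraction of chromosome medians.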

Additional observations from a re-analysis of the deposited data

How the results depend on the processing

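Each of the 9 genes kept its direction under every alternative that gave it a ratio, and 64 of 74 such values moved by less than 0.50 on the log2 scale, the SD per probe set from 1113 genes with a pair of measured probe sets. The other 10 came from the floor or from the choice of probe set. Most of these settings could not have turned a direction. A change of floor can only widen or shrink a ratio. A gene with 1 measured probe set repeats its value, where it has one, under the probe set settings. The 9 genes were also chosen for their ratios, so the kept directions are no evidence for the differences. With the floor at the 25th percentile the log2 ratio was at least 6.68 for Slit3 and at most -4.49 for Tenm4, and Srgap2, above that floor on both arrays, had a value of 2.66. With the floor at the 75th percentile it was at most -2.59 for Sema3a, -0.035 for Nrp2, -0.53 for Efna3 and -0.95 for Tenm4, and at least 3.14 for Slit3 and 0.46 for Srgap2. The median over probe sets gave at most -1.88 for Tenm4. In the wider list, the count past 2-fold towards D351 was 4 of 41 in the report (467 of all 4922). With the lower floor it was 7 of 51 (782 of all 6546), and with the floor on both arrays 2 of 31 (330 of all 4075). Past 1.5-fold it was 8 of 41 (951 of all 4922). Towards D16 the count past 2-fold was 7 of 41 (422 of all 4922). With the lower floor it was 11 of 51 (753 of all 6546), and with the higher floor 3 of 30 (188 of all 2963). Past 3-fold it was 4 of 41 (137 of all 4922). Sema3c, Slit3, Srgap2 and Tenm4 had no ratio with the floor on both arrays, Sema3c none with the higher floor, and Sema3c and Slit3 none on plain probe sets. No scaling moved the median of all genes by over 0.1. No paired analysis was possible because each clone had 1 array. Signal near the floor limits Sema3c, Nrp2 and the partners Plxna2, Plxna4 and Adgrl3, and no setting here measures the spread between cultures.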
